A study of Homo sapiens with 9 samples.

Results

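Interferon-stimulated genes are the genes that cells switch on when interferon binds its receptors, and 45 of them were followed in MDA-MB-231, a line of human breast cancer cells that lack the hormone receptors and HER2 amplification. They were taken from a list by gene symbol, and 43 of the 45 had a probe named for that gene alone, out of 18417 genes and 19460 probes of that kind on the array. STAT2 had no such probe, and the probe of GBP1 is shared with other genes of its family, so neither has a value here. A gene with more than 1 such probe is represented by the one of highest mean signal. The list was chosen with earlier results of these data known, so its counts set against all probes are descriptions only. The cells were exposed for 24 hours to 2.5μM of the SID peptide, a decoy of the domain through which transcription factors recruit the SIN3 corepressor, or to a scrambled peptide (SCR), or were left untreated (UT). The labels give the dose for SID, and the study's methods apply it to SCR as well. RNA of each sample went on 1 Affymetrix array, with 3 arrays in each of the SID, SCR and UT groups. The values are log2 signals as deposited, so a difference of 1 is a 2-fold change. The study's methods call replicates biologically independent but give a smaller number of them than the arrays here, and do not say which are meant. The p-values therefore measure the spread between these arrays, part of which may be technical.

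The arrays fell into 2 sets that cut across the groups. Replicates 1 and 2 of SID and of SCR stood apart from replicate 3 of both and from the UT arrays. Across tested probes the correlation was 0.995 between SCR replicates 1 and 2, 0.927 between SCR replicates 1 and 3, and 0.996 between replicate 3 of SID and replicate 3 of SCR. Several markers of the cell line differed between the sets. Of 5 genes that this mesenchymal-like line should express strongly, VIM and MSN were above 12 on every array. CD44, a hyaluronan receptor, had 13.17, 13.21 and 10.73 on SID replicates 1, 2 and 3, against 13.25, 13.25 and 10.84 on the SCR replicates and 10.68, 10.72 and 10.77 on the UT arrays. CAV1 and AXL differed between the sets in the same way, and SCR minus UT, without replicate 3 of either peptide, was 2.53 for CD44, 2.14 for CAV1 and 3.00 for AXL. EPCAM, an epithelial adhesion gene that this line should express weakly, had 9.74, 10.14 and 6.14 on SID replicates 1, 2 and 3, against 10.78, 10.94 and 6.30 on the SCR replicates, with a UT mean of 6.66 ± 0.24 (SD, n = 3). CDH1, the epithelial cadherin, had 7.05, 7.26 and 6.91 on the SID arrays, against 10.13, 11.08 and 6.73 on the SCR arrays and 6.86 ± 0.04 on the UT arrays. EPCAM on replicates 1 and 2 of both peptides and CDH1 on SCR replicates 1 and 2 thus go against the low levels expected of the labelled line. The other genes chosen as low in this line, ESR1, PGR and ERBB2, differed little between the sets. Over the 9 arrays they ran from 6.76 to 7.23, from 5.61 to 5.75 and from 9.15 to 9.64. Of 5 leukocyte markers, PTPRC, CD3E and ITGAM were similar in the sets. CD14 had 7.95, 7.81 and 7.40 in SID, against 8.13, 8.60 and 7.65 in SCR and 7.35, 7.71 and 7.30 in UT, and LYZ had 5.79, 5.68 and 5.11 in SID, against 5.92, 6.25 and 5.17 in SCR and 5.27, 5.09 and 5.16 in UT. In bulk RNA, fewer cells of a type and less RNA per cell cannot be told apart. The study's own column headings also give the array of SCR replicate 3 a longer exposure than the labels do. Because replicates 1 and 2 hold no UT array, set and treatment cannot be told apart in any comparison of them with UT. The part of the cell state in the values below was not tested, and the counts of called genes are given over all 9 arrays and within the sets.

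Type I and type III interferons act through receptor-bound JAK kinases. A complex that holds STAT2 and IRF9 then binds the interferon-stimulated response element in the promoters of antiviral genes. Interferon gamma acts on promoters with the gamma-activated site, and IRF1 carries part of that response. In breast cancer cells the same genes can be on without added interferon, as part of the response to nucleic acids in the cytoplasm.

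Promoters are shown because the members were listed for their response to interferon and not for sequence, so the windows show what the listed genes share at their start. RefSeq windows (build GRCh38.p14) that run from 250 bases before to 50 bases after a transcription start were found for 34 of the 43 genes. They were searched on both strands for the response element, written as 2 copies of GAAA with 2 bases of any kind between them, and for the gamma-activated site TTCNNNGAA. The response element was present at a start of 24 of the 34 genes (70.6%), against 4.38% of the 27305 genes with a window. The gamma-activated site was present in 13 (38.2%), against 9.38% of all genes. Both motifs occurred in 9 genes and neither in 6. A gene may hold several starts, and the matches may overlap each other and the other motif. The windows of 5 genes that the results turn on follow, chosen as the largest differences between SID and SCR among the genes described array by array that hold the response element. Where a gene has several starts, the window with the match nearest to the start is shown. Capitals mark the response element on either strand, and each window reads 5′ to 3′ along the gene.
SAMD9: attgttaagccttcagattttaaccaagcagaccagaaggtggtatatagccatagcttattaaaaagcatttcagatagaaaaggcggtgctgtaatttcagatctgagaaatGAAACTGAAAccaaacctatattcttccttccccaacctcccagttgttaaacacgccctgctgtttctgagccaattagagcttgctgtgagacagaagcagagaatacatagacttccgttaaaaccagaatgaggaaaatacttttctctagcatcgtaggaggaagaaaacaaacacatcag
IFI44: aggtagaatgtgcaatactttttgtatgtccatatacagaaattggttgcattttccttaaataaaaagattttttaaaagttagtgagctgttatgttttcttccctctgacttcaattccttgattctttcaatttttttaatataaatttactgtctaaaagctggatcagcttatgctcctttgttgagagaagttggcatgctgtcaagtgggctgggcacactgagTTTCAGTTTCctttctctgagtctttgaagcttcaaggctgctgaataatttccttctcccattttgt
IFI44L: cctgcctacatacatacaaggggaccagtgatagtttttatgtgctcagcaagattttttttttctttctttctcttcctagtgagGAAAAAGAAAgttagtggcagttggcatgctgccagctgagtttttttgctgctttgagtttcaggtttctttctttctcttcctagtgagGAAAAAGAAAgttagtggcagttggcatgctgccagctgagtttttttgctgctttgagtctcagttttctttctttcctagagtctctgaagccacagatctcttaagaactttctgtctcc
IFITM1: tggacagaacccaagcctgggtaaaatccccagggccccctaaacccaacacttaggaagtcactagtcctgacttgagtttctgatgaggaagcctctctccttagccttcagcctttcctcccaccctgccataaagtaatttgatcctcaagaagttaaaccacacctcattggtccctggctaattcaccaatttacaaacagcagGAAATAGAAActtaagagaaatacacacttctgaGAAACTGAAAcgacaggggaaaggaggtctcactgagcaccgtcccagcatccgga
IFI27: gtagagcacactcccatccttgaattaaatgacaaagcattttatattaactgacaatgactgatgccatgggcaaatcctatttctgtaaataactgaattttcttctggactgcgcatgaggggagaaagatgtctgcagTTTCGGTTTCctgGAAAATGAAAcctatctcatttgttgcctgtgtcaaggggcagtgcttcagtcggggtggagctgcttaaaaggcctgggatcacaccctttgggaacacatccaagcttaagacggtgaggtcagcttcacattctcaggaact
The windows lie at chr7:93117930-93118229 on the minus strand for SAMD9, chr1:78649539-78649838 on the plus strand for IFI44, chr1:78620198-78620497 on the plus strand for IFI44L, chr11:313790-314089 on the plus strand for IFITM1 and chr14:94110486-94110785 on the plus strand for IFI27. SAMD9 has 1 match, which begins at position -136 from the start. IFI44 has 1 match at -18, read on the opposite strand. IFI44L has 2 matches, at -164 and -73. IFITM1 has 2 matches, at -40 and -6, and a gamma-activated site at -12 that overlaps the second of them. IFI27 has 2 matches, at -108 and -95, and a gamma-activated site at -101 that overlaps both.

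**Figure D1:**
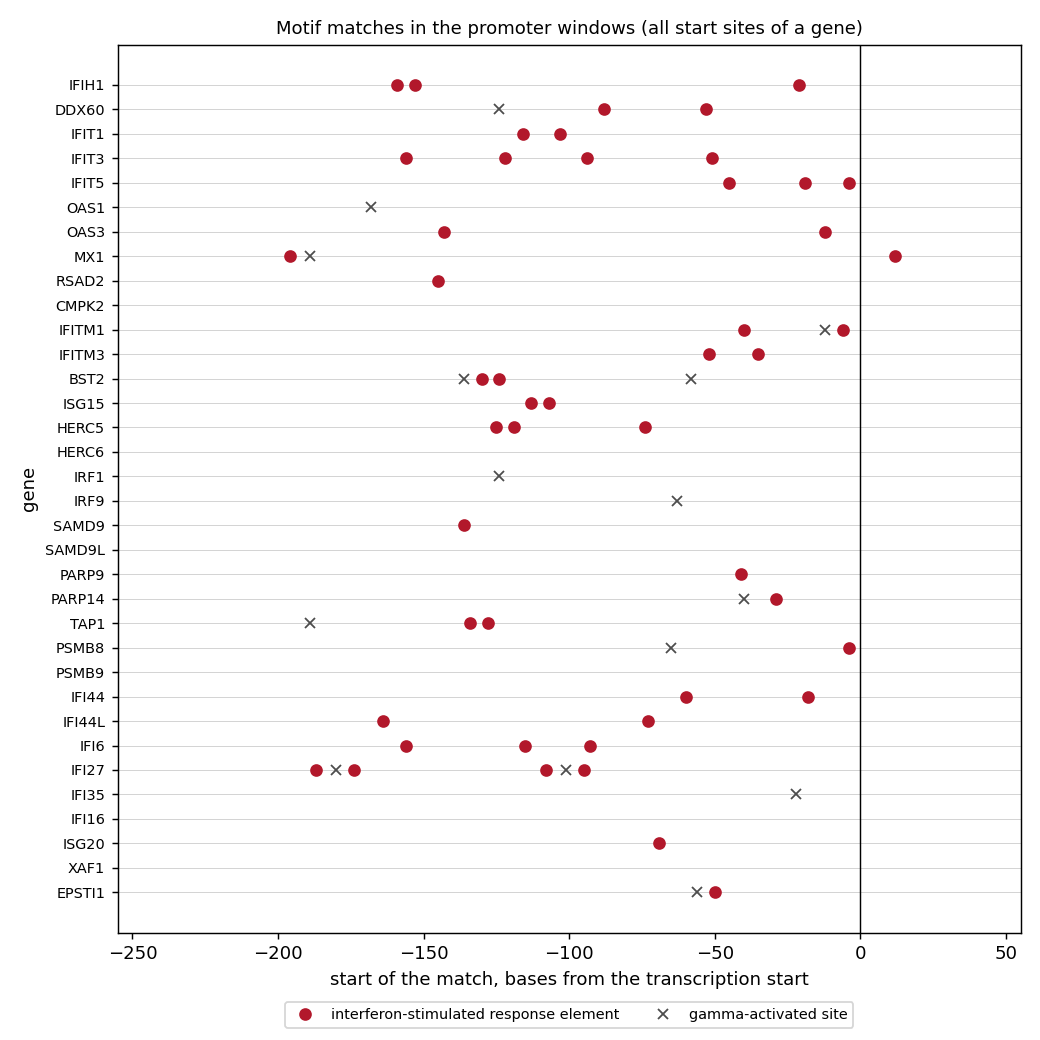
Positions of the response element (circles) and the gamma-activated site (crosses) in the promoter windows of the 34 genes with a window; the x axis is the distance in bases from the transcription start to the first base of the match, over all starts of a gene. Most circles lie upstream of the start, and CMPK2, HERC6, SAMD9L, PSMB9, IFI16 and XAF1 have neither mark.

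The question put by the main comparison is how the SID peptide changed these genes relative to its scrambled control. Over all 9 arrays, 31 of the 43 genes lay below 0 in SID minus SCR, with a median difference of -0.29 against 0.02 over all tested probes, of which 44.8% lay below 0. No gene of the list passed the call, which needs an adjusted p under 0.05 by limma and a difference above 1 or below -1. The background was the same, with 0% of all probes called higher and 0% called lower. The lowest adjusted p among the 43 genes was 0.657. At an unadjusted p under 0.05 there were 9 genes, 7 of them lower in SID, against 7.57% of all probes.

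The difference was not shared by the 3 replicates. Replicates 1 and 2 had medians over the 43 genes of -0.44 and -0.40, and replicate 3 had a median of 0.0036. In replicate 1, 10 genes were more than 1 lower in SID and 3 more than 1 higher, against 2.44% and 2.09% of all probes. In replicate 2, 14 were lower and 4 higher by that measure, against 5.12% and 2.49%. In replicate 3 no gene of the list passed 1 in either direction, against 0.293% of all probes lower and 0% higher. Between replicates 1 and 2 of the groups, both SID arrays lay below both SCR arrays for 27 genes and above them for 10, against 26.3% and 32.6% of all probes. With replicate 3 included, IFI44L and EPSTI1 lay wholly below in SID and TAP1 and PSMB8 wholly above, which is 2 genes each way, against 1.65% and 4.01% of all probes.

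**Figure D2:**
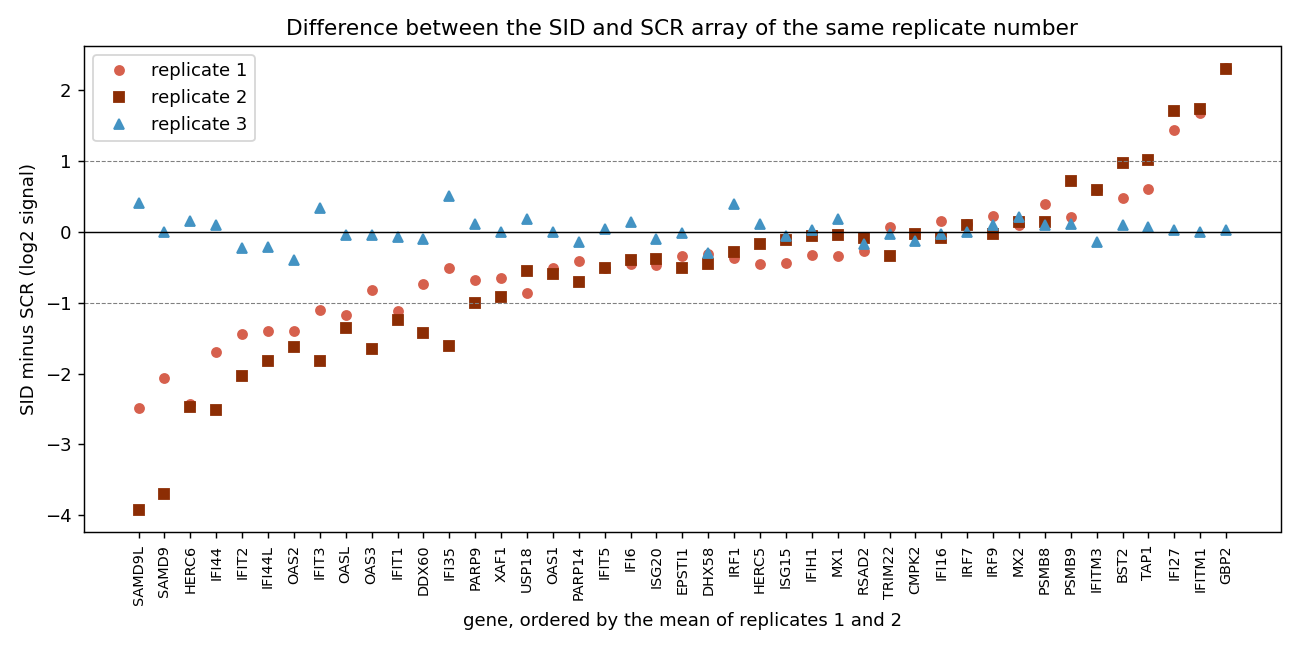
SID minus SCR in log2 signal for each of the 43 genes (x axis, ordered by the mean of replicates 1 and 2), by replicate; dashed lines mark 1 and -1. Circles and squares (replicates 1 and 2) mostly lie on the same side of 0, down to -3.93 in replicate 2 for SAMD9L and up to 2.31 in replicate 1 for GBP2, while triangles (replicate 3) stay within 0.51 of 0.

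Within replicates 1 and 2, a fit of those 4 arrays called 8 genes lower and 3 higher in SID, against 2.64% and 1.77% of all probes. The lower genes were SAMD9L, HERC6, IFI44, IFI44L, IFIT2, OAS2, OAS3 and OASL, and the higher ones GBP2, IFI27 and IFITM1. A fit of the same 4 arrays with the 3 UT arrays, chosen after the values were seen, takes its spread from 7 arrays. It called 13 lower and 3 higher, against 3.31% and 1.95% of all probes, adding SAMD9, IFIT1, IFIT3, DDX60 and IFI35 to the lower genes. The differences of the genes described below come from this 7-array fit unless another is named. The 4-array fit gave larger adjusted p for the same differences, such as 0.0472 for SAMD9L, 0.0438 for IFIT2, 0.0162 for HERC6 and 0.016 for GBP2. With replicate 3 of SID and of SCR and the UT arrays alone, no gene was called in SID minus SCR, in SID minus UT or in SCR minus UT, against 0% of all probes each way. That fit holds 1 SID and 1 SCR array and takes its whole spread from the UT arrays, like which each lone array is assumed to vary, so its counts do not show that differences are absent. At an unadjusted p under 0.05 there were 5, 6 and 5 genes in these comparisons, against 4.16%, 12.1% and 8.78% of all probes. Over all 9 arrays the 16 genes of the 7-array fit had smaller differences, and no adjusted p was under 0.657. They were -2.00 for SAMD9L, -1.92 for SAMD9, -1.58 for HERC6, -1.37 for IFI44, -1.23 for IFIT2, -1.14 for OAS2 and for IFI44L, -0.86 for IFIT3 and for OASL, -0.84 for OAS3, -0.81 for IFIT1, -0.76 for DDX60 and -0.54 for IFI35. For the higher genes they were 1.55 for GBP2, 1.14 for IFITM1 and 1.06 for IFI27.

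The peptide-treated arrays were also set against untreated cells. Over all 9 arrays no gene was called in SID minus UT or in SCR minus UT, with 0% of all probes called in either, and the median differences were 0.22 and 0.25, against 0.02 and 0.01 over all probes. At an unadjusted p under 0.05 there were 5 genes in SID minus UT and 13 in SCR minus UT, against 12.5% and 14.4% of all probes. In the 7-array fit SID exceeded UT for 12 genes and lay under it for 5, against 6.93% and 6.40% of all probes. In that fit SCR exceeded UT for 17 genes and lay under it for 3, against 6.58% and 4.82%. Both comparisons share the UT arrays, and both set replicates 1 and 2 against arrays of the other set. The median level of the 43 genes per array was 8.66, 7.98 and 7.92 on SID replicates 1, 2 and 3, against 9.28, 9.22 and 7.96 on the SCR replicates and 7.80 to 7.96 on the UT arrays.

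**Figure D3:**
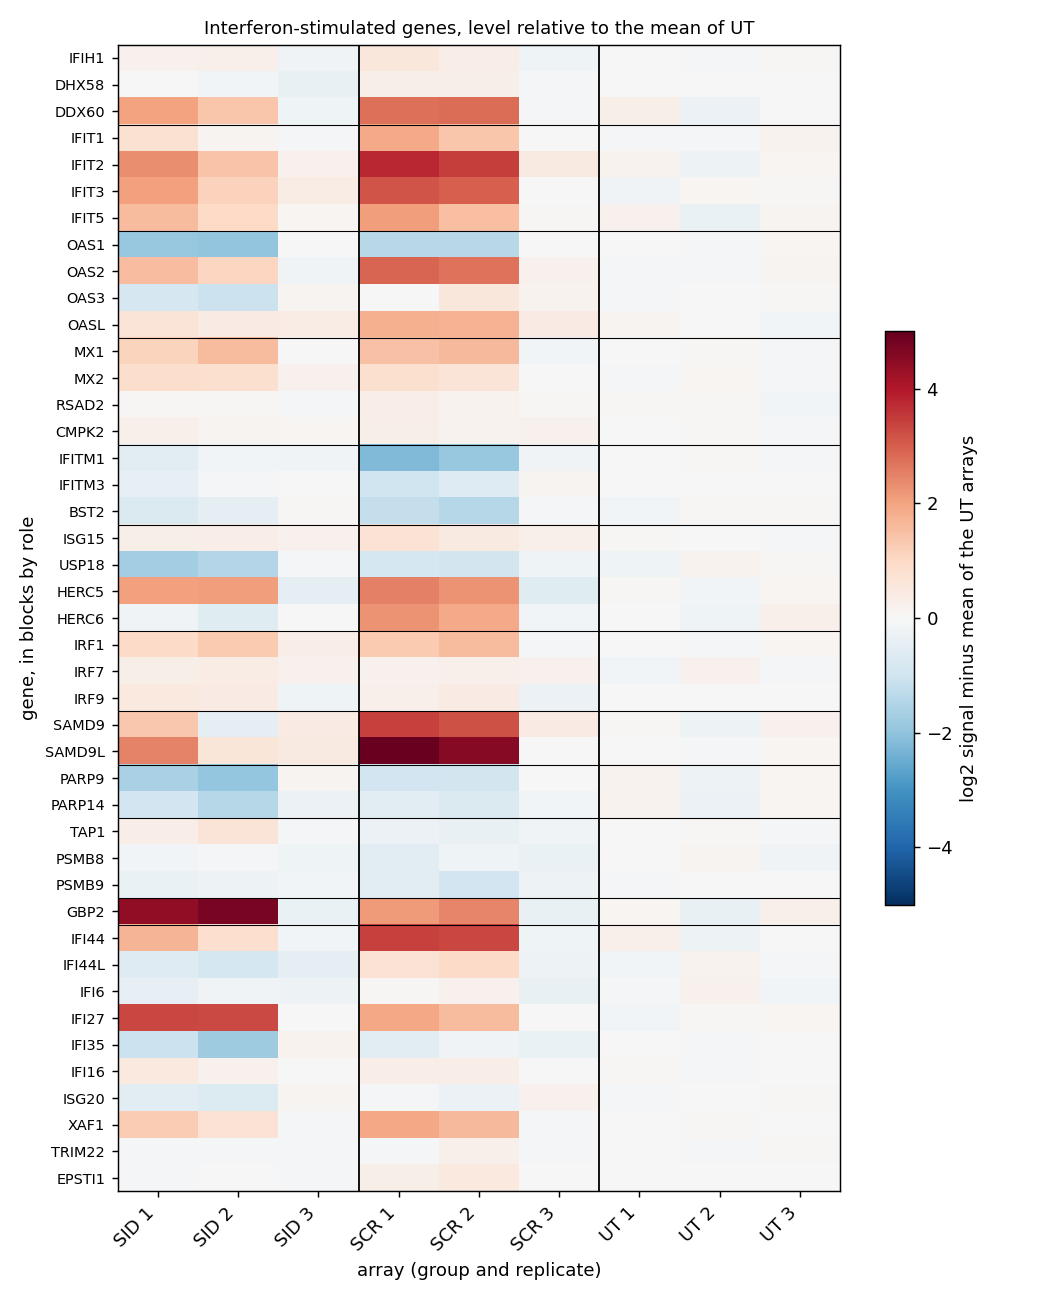
Log2 signal of the 43 genes (rows, in blocks by role) on the 9 arrays (columns), each minus the mean of the UT arrays; red is higher and blue lower than UT. The red of SCR 1 and 2 is deepest for SAMD9L, IFIT2 and IFI44, it is mostly paler on SID 1 and 2 apart from GBP2 and IFI27, and SID 3 and SCR 3 are near white.

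The SAMD9 proteins, cytoplasmic factors that restrict poxviruses and limit cell growth, had the widest differences. SAMD9L had 8.21, 6.35 and 6.17 on SID replicates 1, 2 and 3, against 10.69, 10.28 and 5.76 on the SCR arrays and 5.75, 5.63 and 5.82 on the UT arrays. Both SCR arrays of replicates 1 and 2 stood far above all others, and the SID array of replicate 1 lay between them and UT. SID minus SCR was -2.00 ± 1.25 over 9 arrays (difference and SE by limma, adjusted p = 0.721) and -3.20 ± 0.50 in the 7-array fit (adjusted p = 0.00347). Its neighbour SAMD9 had 8.67, 6.81 and 7.74 in SID, against 10.73, 10.51 and 7.74 in SCR and 7.37, 7.05 and 7.54 in UT. The 2 SID arrays of replicates 1 and 2 differed from each other by more than any of the UT arrays did. Its difference was -2.88 ± 0.50 in the 7-array fit (adjusted p = 0.00567). SAMD9 missed the threshold in the 4-array fit (adjusted p = 0.0565), and had the same deposited value on both arrays of replicate 3.

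The ISG15 system tags proteins with the ubiquitin-like ISG15. HERC5 is the ligase that attaches it in human cells, HERC6 is its close relative next door on the chromosome, and USP18 removes the tag and damps receptor signalling. HERC6 had 7.50, 7.10 and 7.70 in SID, against 9.92, 9.57 and 7.55 in SCR and 7.66, 7.46 and 7.96 in UT. SID replicate 1 lay inside the UT range and SID replicate 2 below it, while SCR replicates 1 and 2 stood above every other array. The difference was -2.45 ± 0.20 (adjusted p = 0.000351). Between arrays of the same number, which are not taken as pairs, it was -2.42, -2.47 and 0.16. HERC5 had 9.49, 9.50 and 6.94 in SID, against 9.95, 9.68 and 6.83 in SCR and 7.47, 7.28 and 7.52 in UT. HERC5 was thus high on all 4 arrays where HERC6 was high on the SCR arrays alone, and its own difference of -0.32 was not called (adjusted p = 0.106). ISG15 differed by -0.27 and was not called (adjusted p = 0.125). USP18 lay below the UT range on replicates 1 and 2 of both peptides. Its SID minus SCR difference of -0.71 passed the p but not the size limit (adjusted p = 0.0096), and its SID minus UT difference of -1.59 was called (adjusted p = 4.22e-05).

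The IFIT proteins bind viral RNA that lacks host cap marks, and their genes lie in 1 cluster. IFIT2 had 8.66, 7.75 and 6.55 in SID, against 10.10, 9.78 and 6.78 in SCR and 6.49, 6.07 and 6.43 in UT. IFIT3 had 8.92, 8.05 and 7.24 in SID, against 10.02, 9.87 and 6.90 in SCR and 6.73, 6.999 and 6.93 in UT. Both were highest on SCR replicates 1 and 2, intermediate on the SID arrays of those replicates and low elsewhere. SID minus SCR was -1.73 ± 0.29 for IFIT2 (adjusted p = 0.00449), -1.46 ± 0.25 for IFIT3 (adjusted p = 0.00521) and -1.18 ± 0.23 for IFIT1 (adjusted p = 0.00934). IFIT5 differed by -0.51 and was not called (adjusted p = 0.225).

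The OAS genes, which also lie side by side, encode enzymes that sense viral RNA and make the oligoadenylates that activate RNase L, and OASL is a relative without that activity. OAS2 had 7.94, 7.49 and 6.25 in SID, against 9.35, 9.12 and 6.65 in SCR and 6.35, 6.36 and 6.55 in UT. OAS1 had 7.56, 7.47 and 9.44 in SID, against 8.07, 8.07 and 9.44 in SCR and 9.43, 9.37 and 9.52 in UT. On replicates 1 and 2 of both peptides OAS1 thus lay below UT where OAS2 lay above it, with 7-array differences from UT of -1.93 and 1.30 in SID and of -1.37 and 2.81 in SCR, all called. SID minus SCR was below 0 for both, at -1.52 ± 0.16 for OAS2 (adjusted p = 0.000859) and at -0.56 ± 0.09 for OAS1, which passed the p (adjusted p = 0.00399) but not the size limit. OAS3, between them on the chromosome, had a called difference of -1.24 ± 0.18 (adjusted p = 0.00289), and OASL one of -1.26 ± 0.12 (adjusted p = 0.000603). OAS3 differed from UT by 0.28 in SCR, which was not called.

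**Figure D4:**
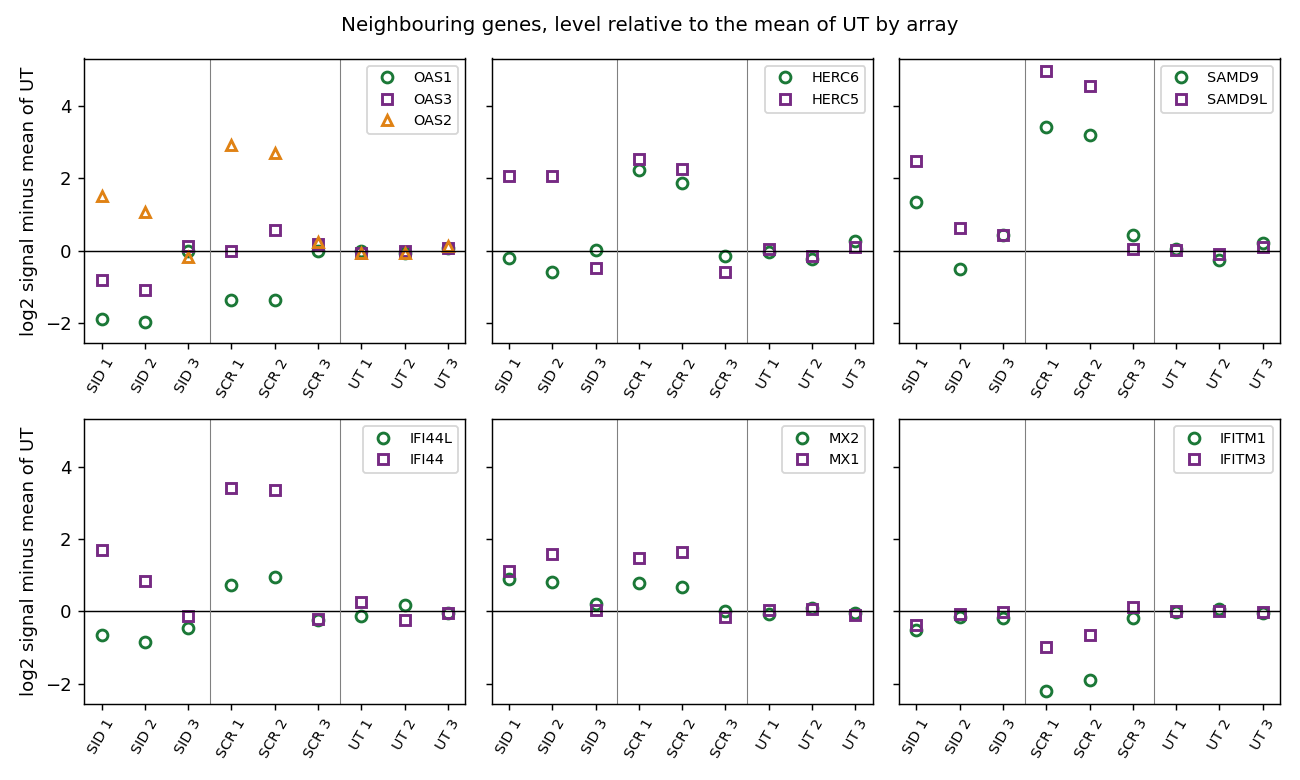
Log2 signal minus the mean of the UT arrays for neighbouring genes of the list, by array (SID, SCR, UT from left to right). OAS1 and OAS2 lie on opposite sides of 0 on replicates 1 and 2 of both peptides, and HERC6 is near 0 on the SID arrays where HERC5 is high.

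Of the 13 pairs of listed genes that are direct neighbours among protein-coding genes, 12 had both values. IFI44 and IFI44L, both induced by interferon, are such a pair. IFI44 had 7.90, 7.03 and 6.07 in SID, against 9.60, 9.54 and 5.98 in SCR and 6.47, 5.95 and 6.16 in UT. IFI44L had 6.21, 6.01 and 6.42 in SID, against 7.60, 7.83 and 6.63 in SCR and 6.75, 7.04 and 6.83 in UT. IFI44 on SID replicates 1 and 2 stayed above every UT array, whereas IFI44L on all 3 SID arrays lay below all UT and all SCR arrays. The differences from SCR were -2.10 ± 0.27 for IFI44 (adjusted p = 0.0017) and -1.61 ± 0.13 for IFI44L (adjusted p = 0.000349). IFI44L also had the lowest unadjusted p of the list over 9 arrays, 0.00501, with a difference of -1.14 ± 0.29 and an adjusted p of 0.657.

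Of the 3 RNA helicases on the list, DDX60 was called in the 7-array fit and the others were not. DDX60, a helicase that promotes sensing of viral RNA, had 8.77, 8.13 and 6.55 in SID, against 9.51, 9.55 and 6.66 in SCR and 7.05, 6.48 and 6.75 in UT. Its difference was -1.08 ± 0.23 (adjusted p = 0.0131), and it missed the threshold in the 4-array fit (adjusted p = 0.0524). DHX58, which modulates the sensors, differed by -0.39 (adjusted p = 0.0129), under the size limit, and IFIH1, the sensor MDA5, by -0.20 (adjusted p = 0.233).

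Genes of the list that were higher in SID were fewer. GBP2, a guanylate-binding GTPase of host defence, had 10.83, 11.12 and 6.05 in SID, against 8.52, 8.81 and 6.02 in SCR and 6.50, 6.01 and 6.65 in UT. It was highest on SID replicates 1 and 2, next on SCR replicates 1 and 2 and at the UT level on replicate 3 of both. The difference was 2.31 ± 0.21 (adjusted p = 0.000515) by the probe with the higher signal, and 0.72 by the other probe of GBP2 in replicates 1 and 2. IFI27, a mitochondrial protein, had 10.56, 10.52 and 7.22 in SID, against 9.13, 8.81 and 7.19 in SCR and 7.09, 7.25 and 7.29 in UT, in the same order. Its difference was 1.57 ± 0.13 (adjusted p = 0.000304).

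IFITM1 and IFITM3, which block the entry of viruses at membranes, and BST2, which tethers budding virus, had high signals in untreated cells. IFITM1 had 12.33, 12.70 and 12.66 in SID, against 10.65, 10.96 and 12.66 in SCR and 12.85, 12.92 and 12.80 in UT. SCR replicates 1 and 2 stood below all other arrays, and SID lay just under UT. SID minus SCR was 1.71 ± 0.15 (adjusted p = 0.00041), and SCR minus UT was -2.05 ± 0.14 (adjusted p = 1.79e-05). IFITM3 had 12.45, 12.78 and 12.82 in SID, against 11.85, 12.18 and 12.96 in SCR and 12.86, 12.84 and 12.81 in UT. BST2 had 10.84, 11.11 and 11.63 in SID, against 10.37, 10.14 and 11.53 in SCR and 11.45, 11.64 and 11.64 in UT. Both had the order of IFITM1 in replicates 1 and 2, with differences of 0.59 and 0.72 that passed the p (adjusted p = 0.0199 and 0.00671) but not the size limit.

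**Figure D5:**
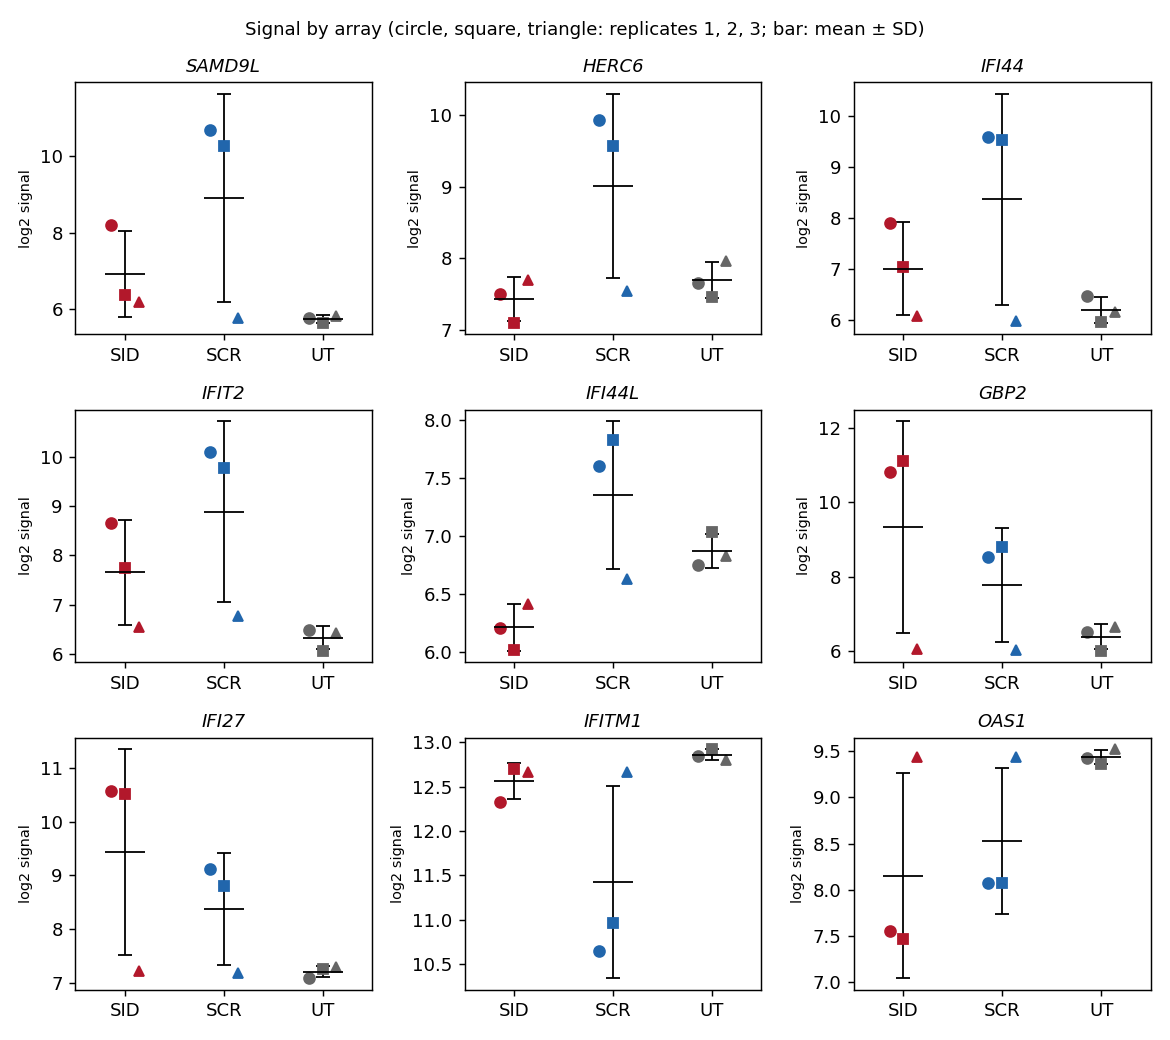
Log2 signal of 9 genes by array in SID, SCR and UT; circles, squares and triangles are replicates 1, 2 and 3, and the bar is the mean with the SD of 3 arrays. In most panels the triangles of SID and SCR lie near UT, and the gaps between SID and SCR are those of the circles and squares.

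Of the transcription factors, IRF1 had 8.91, 9.26 and 8.29 in SID, against 9.28, 9.55 and 7.90 in SCR and 7.94, 7.88 and 8.04 in UT. IRF7, which drives interferon genes, had 8.84, 8.89 and 8.73 in SID, against 8.73, 8.79 and 8.73 in SCR and 8.41, 8.73 and 8.44 in UT. IRF9 had 9.09, 9.02 and 8.42 in SID, against 8.87, 9.04 and 8.31 in SCR and 8.65, 8.60 and 8.63 in UT. None of the 3 was called between SID and SCR, with differences of -0.33, 0.10 and 0.10 and adjusted p of 0.144, 0.63 and 0.506. IRF1 was higher than UT by 1.13 in SID and by 1.46 in SCR, both called (adjusted p = 0.000279 and 8.5e-05).

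PARP9 and PARP14 modify proteins with ADP-ribose and act in the interferon response. Both genes lay below the UT range on replicates 1 and 2 of both peptides. PARP9 had 7.16, 6.86 and 8.92 in SID, against 7.84, 7.86 and 8.82 in SCR and 8.95, 8.51 and 8.89 in UT. It lay lowest on SID replicates 1 and 2, with SID minus UT of -1.78 ± 0.15 (adjusted p = 5.31e-05) and SID minus SCR of -0.84, under the size limit (adjusted p = 0.00884). PARP14 had SID minus UT of -1.19 (adjusted p = 0.00117). Its SCR replicates 1 and 2 had 9.39 and 9.22, against 9.66 to 10.14 on the UT arrays. TAP1, the transporter that loads peptides for class I presentation, was 0.81 higher in SID than in SCR, under the size limit (adjusted p = 0.00284), and higher in all 3 replicates by 0.61, 1.02 and 0.07. The immunoproteasome subunits PSMB8 and PSMB9 differed by 0.26 and 0.46, also under the limit (adjusted p = 0.214 and 0.0425).

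The DNA sensor IFI16 had 11.69, 11.43 and 11.18 in SID, against 11.54, 11.52 and 11.21 in SCR and 11.27, 11.13 and 11.21 in UT, with no order between SID and SCR. MX2, a GTPase that blocks viruses at the nucleus, had 7.12, 7.03 and 6.44 in SID, against 7.02, 6.89 and 6.24 in SCR and 6.17, 6.33 and 6.19 in UT. MX1, its neighbour, was higher than UT by 1.36 in SID and by 1.55 in SCR, both called, and differed between SID and SCR by -0.19 (adjusted p = 0.454). RSAD2, the antiviral enzyme viperin, had 5.83, 5.83 and 5.66 in SID, against 6.10, 5.93 and 5.83 in SCR and 5.83, 5.82 and 5.63 in UT. EPSTI1 had 5.43, 5.46 and 5.45 in SID, against 5.77, 5.97 and 5.46 in SCR and 5.48, 5.47 and 5.51 in UT. TRIM22, a ubiquitin ligase, had 6.34, 6.29 and 6.31 in SID, against 6.26, 6.63 and 6.33 in SCR and 6.38, 6.33 and 6.42 in UT. The last 3 genes were low on the 9 arrays, and their signals ranged over less than 1. Of the remaining genes, IFI35 had a called difference of -1.06 (adjusted p = 0.0119), with opposite signs in replicate 2 and replicate 3 at -1.61 and 0.51. XAF1, IFI6, ISG20 and CMPK2 differed by -0.79, -0.43, -0.43 and -0.03 and were not called.

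With respect to sequence, 7 of the 10 lower-called genes with a promoter window held the response element, as did both higher-called genes with one. The share for the lower-called genes is near that of all 34 listed genes with a window, 70.6%, against 4.38% of all genes. SAMD9L and HERC6, whose differences were among the widest, had no match in the window, and SAMD9 and HERC5 beside them had one. GBP2 has no window in the table used.

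Genes of the interferon pathway outside the list were counted in the same 7-array fit. They included 16 interferon ligands, 10 receptors, kinases and STATs, 9 regulators, 9 more class I presentation genes and 3 constitutive proteasome subunits. Of these 47 genes, 0 were called between SID and SCR by limma in the 7-array fit, against 3.31% of all probes lower and 1.95% higher. Over 9 arrays 0 were called, against 0% of all probes. Of these 47 genes, 16 passed the adjusted p in the 7-array fit with differences under the size limit, against 24.9% of all probes that passed it at any size. In SCR minus UT of that fit, 2 regulators (TRIM25 and UBA7) and 2 class I genes (ERAP1 and ERAP2) were called higher. The share of all probes called higher there was 6.58%. The ligands had median levels of 5.24 in SID, 5.24 in SCR and 5.27 in UT, and IFNB1 had 4.94, 5.23 and 4.94 in SID, against 4.94, 4.81 and 4.94 in SCR and 4.90, 5.01 and 4.86 in UT. The receptor subunits IFNGR2 and IFNAR1 differed in opposite directions, by 0.87 and -0.70 (adjusted p = 0.000961 and 0.0163), both under the size limit. Among 14 sensors and adaptors, SID lay below SCR for 4 called genes and above it for 0, against 3.31% and 1.95% of all probes, and SCR lay above UT for 6, against 6.58%. TLR4, the receptor for lipopolysaccharide, had 7.86, 6.44 and 7.36 in SID, against 10.19, 10.36 and 7.27 in SCR and 7.48, 7.17 and 7.39 in UT, a difference of -3.13 (adjusted p = 0.00144), and of -2.05 over 9 arrays (adjusted p = 0.657). TLR3, the endosomal RNA receptor, differed by -1.98, the kinase IKBKE by -1.46 and RIG-I (DDX58) by -1.06. Among 38 other interferon-stimulated genes, 5 were called lower and 1 higher for SID minus SCR, against the same 3.31% and 1.95%, and 2 lower and 1 higher in the 4-array fit. The chemokine CXCL10 differed by -1.49 (adjusted p = 0.00635), SLFN5 by -1.07 (adjusted p = 0.0339), neither of them called in the 4-array fit (adjusted p = 0.0603 and 0.127), and the death ligand TNFSF10 by 1.41 (adjusted p = 0.000534). Beside these, CDH1 had a called SID minus SCR difference of -3.45 in the same fit. Of 4 endothelial markers, CDH5 and PECAM1 were called, at -2.67 and -1.15, and PECAM1 missed the threshold in the 4-array fit (adjusted p = 0.0576). VWF and KDR went the other way, by 0.09 and 0.16, and were not called. Among the leukocyte and fibroblast markers, 0 of 5 and 0 of 4 were called. Summed over linear signals, the leukocyte markers ran from 408 to 511 in SID, from 460 to 667 in SCR and from 397 to 463 in UT, and the endothelial markers from 489 to 921, from 918 to 1605 and from 950 to 1140 in the same order of groups. Their part in the differences was not tested.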

How the data were processed

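The authors deposited 1 table of signals per transcript cluster for 9 arrays. Per the labels it was made with RMA in Affymetrix software (Expression Console, and also Transcriptome Analysis Console), without settings or versions. The deposited values were taken as log2 from their range, since no source states the scale. The study's own tool works on single probes and cannot be run on these values. The members of the list and the other lists were chosen with earlier results of these data known.

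Probes paired with 1 gene symbol were kept (19460 of 33297, with 1754 paired with several symbols and 12083 with none), and 19429 matched the annotation by Entrez ID. A linear model with moderated variance was fitted to the 3 groups (R 4.3.3, limma 3.58.1). Benjamini-Hochberg adjustment ran over the 19460 probes, with a limit of 0.05 and of 1 in log2. The procedure was tested on simulated data without a split of the arrays into sets. That test therefore does not cover the split seen here. The number of arrays limits the precision.

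Values on every array are given for the 8 genes with the widest difference in each comparison and for the IRF genes. They are also given for the 4 highest and 4 lowest in level. Genes of the other lists, not always the 3 with the widest SID minus SCR difference, are named mostly by their difference alone. Others were named after their values were seen. Deviations from the group means of SID and SCR arrays of the same number correlated at 0.774, 0.575 and 0.791, which the 2 sets of arrays alone can give. Between replicates 1 and 2 the SID and SCR differences correlated at -0.012, so the numbers were not taken to pair arrays. Alternatives were quantile normalization, centring, array weights, a filter on low signals, other sample sets, every probe of a gene, the t-test and leaving out each array. Of 137 genes in the other lists and marker lists, 122 had a value. Figures were drawn with matplotlib.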

Additional observations from a re-analysis of the deposited data

How the results depend on the processing

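The count of genes called over 9 arrays was 0 in each comparison and stayed 0 with quantile normalization, centring, the filter on low signals, only the arrays compared, every probe of a gene, no fold limit and the t-test. With the replicate block it was also 0, so the block changed no call. In all of these settings 0% of all probes were called. With the set of arrays as a term the count was 0 in each comparison as well. There 0% of all probes were called in SID minus SCR and in SCR minus UT, and 0.00514% in SID minus UT. Array weights, which gave replicate 3 of SID and of SCR the lowest weights (0.137 and 0.176), called 12 genes in SID minus SCR, 17 in SID minus UT and 20 in SCR minus UT, against 3.91%, 12.3% and 10.9% of all probes. Replicates 1 and 2 of SCR and SID alone called 11 genes in SID minus SCR (4.41%). The 7 arrays without replicate 3 of SID and SCR called 16, 17 and 20 (5.26%, 13.3% and 11.4%). Leaving out 1 array at a time called 0 to 7 genes in SID minus SCR (7 without SCR replicate 3, 4 without SID replicate 3, against 1.15% and 3.33% of all probes), 0 to 7 in SID minus UT (7 without SID replicate 3, against 10%) and 0 to 15 in SCR minus UT (15 without SCR replicate 3, against 5.5%).

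Median differences ran from -0.34 to -0.16 in SID minus SCR, from 0.05 to 0.32 in SID minus UT and from 0.21 to 0.38 in SCR minus UT when 1 array was left out. The lowest median of SID minus UT, 0.0506, came without SID replicate 1. With replicate 3 and the UT arrays alone they were 0.0036, -0.0239 and -0.0456, and with the set of arrays as a term the median of SID minus UT was -0.1794. Among the 8 genes with the widest difference in each comparison, the sign turned in replicate 3 alone in SID minus SCR for SAMD9L (0.40), HERC6 (0.16) and IFI44 (0.0936), in SID minus UT for GBP2 (-0.34), HERC5 (-0.49) and PARP9 (0.14), and in SCR minus UT for IFI44 (-0.22) and DDX60 (-0.10). Of the other genes called in the 7-array fit, IFIT3 (0.34) and IFI35 (0.51) also turned in SID minus SCR. With the set as a term it turned in SID minus UT for IFIT2 (-0.29), HERC5 (-0.63), IFIT3 (-0.25) and SAMD9L (-0.77). The cause was not tested.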
